A study of Homo sapiens with 6 samples.

Results

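The 65 replication histone genes on the array were described in INA6 cells, a human multiple myeloma line whose growth depends on interleukin-6 (IL-6). Members were all probes whose symbol in the platform's probe table starts with HIST1H, HIST2H, HIST3H or HIST4H, which gave 87 probes of the 27216 that carry a gene symbol and of 243504 spots in all. The series compared 3 restimulated samples, kept without IL-6 for 13 h and then given IL-6 for 1 h, with 3 withdrawn samples, kept without IL-6 for 13 h. Both groups thus carried the same withdrawal and differed by the last hour with IL-6, and the question put to the histone genes was whether that hour moved their transcripts. Each sample was hybridised in 1 colour to its own array. The labels call the samples biological replicates but do not say whether they came from separate cultures, so p-values measure the spread between these samples. INA6 is 1 established line, and 1 time point after restimulation was measured.

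Replication histone genes encode the H1 linker histones and the core histones H2A, H2B, H3 and H4 that package newly made DNA. Most lie in clusters, HIST1 on chromosome 6 and HIST2 and HIST3 on chromosome 1, and their transcripts build up in S phase and are lost when DNA synthesis ends. Unlike other mRNAs they mostly end in a conserved stem-loop in place of a poly(A) tail, so oligo-dT labelling misses them. Here the RNA was labelled from random primers, so transcripts of both kinds could be read. IL-6 acts through its receptor and JAK kinases on STAT3, a transcription factor.

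The stimulus was read in SOCS3, a STAT3 target that feeds back on the receptor. Its level was 11.54, 11.47 and 11.79 in restimulated samples, against 7.73, 7.54 and 7.91 in withdrawn samples (log2 intensity, replicates 1 to 3). The difference was 3.87 ± 0.13 (SE; limma, adjusted p = 1.98e-06). Of the other IL-6 response genes examined, PIM2 and JUNB were also called higher, JUNB on its brighter probe. The other tested probe of JUNB differed by -0.13 ± 0.13 and was not called. BCL6 was called higher too. It lay above the array median on the 3 restimulated arrays only and passed the filter on dim spots through them alone, so its call is not used as support. All 7 plasma cell markers on the array were tested. SDC1, CD38, TNFRSF17, IRF4 and JCHAIN were not called, and PRDM1 and XBP1, transcription factors of plasma cells, were called higher in restimulated samples, by 1.29 ± 0.10 (adjusted p = 0.000154, limma) and 0.71 ± 0.13 (adjusted p = 0.0151). The call of XBP1 was lost without restimulated replicate 2 or 3 or withdrawn replicate 2 (adjusted p = 0.0840, 0.0521 and 0.0536), with the replicate number as a block (0.0635) and with spots at the ceiling kept in the fit (0.0643). The other XBP1 probe differed by 0.68 ± 0.19 and was not called. Both IRF4 probes were higher in restimulated samples without being called. The brighter differed by 0.49 ± 0.12 and the other by 0.54 ± 0.13 (adjusted p = 0.0671 and 0.0527, limma). Of 6 T cell and myeloid markers 3 passed the filter on dim spots and none was called. The B cell marker CD79A was at the ceiling on all 6 arrays, MS4A1 did not pass the filter, and PAX5 was tested and not called. Of 6 epithelial and fibroblast markers 3 passed it. The tested KRT8 probe was bright, with means of 14.56 in restimulated and 14.72 in withdrawn samples, and was not called. PDGFRA was called higher on its brightest probe, by 1.20 ± 0.14. Another tested PDGFRA probe differed by 0.08 ± 0.14 and was not called, and the remaining one did not pass the filter.

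Promoters of these genes were laid out first, because H2A and H2B genes often share one. RefSeq promoter windows of GRCh38.p14, from 250 bases before to 50 bases after the start, were found for 60 of the 65 genes, which gave 64 windows. An H2A and an H2B gene lay head to head in 10 pairs, with windows on opposite strands that shared 253 to 293 bases. The octamer ATTTGCAT, searched on both strands, was in 11 of 14 H2A windows and 14 of 19 H2B windows, in 1 of 13 H3 windows and in none of 6 H1 or 12 H4 windows, against 1.77% of all 35116 windows in the table. It is the letter pattern that Oct-1 binds in H2B promoters. An octamer in the stretch shared by a pair counts in both windows, and some genes had more than 1 window. The H2A and H2B counts are therefore not independent of each other. Of the 10 pairs, 8 held the octamer in both windows. Each is shown with 20 bases on either side, read on the strand on which the octamer reads ATTTGCAT, and the capitals mark the octamer. Coordinates are those of GRCh38.p14.
HIST2H2AC and HIST2H2BE, chr1:149886701-149886748, minus strand: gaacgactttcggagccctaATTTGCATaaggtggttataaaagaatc
HIST1H2AA and HIST1H2BA, chr6:25726653-25726700, plus strand: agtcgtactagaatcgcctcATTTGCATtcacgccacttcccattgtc
HIST1H2AC and HIST1H2BC, chr6:26124022-26124069, minus strand: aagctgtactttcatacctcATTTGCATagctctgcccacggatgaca
HIST1H2AD and HIST1H2BF, chr6:26199385-26199432, plus strand: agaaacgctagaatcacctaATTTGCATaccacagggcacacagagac
HIST1H2AE and HIST1H2BG, chr6:26216709-26216756, minus strand: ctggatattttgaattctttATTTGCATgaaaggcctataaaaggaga
HIST1H2AG and HIST1H2BJ, chr6:27132815-27132862, minus strand: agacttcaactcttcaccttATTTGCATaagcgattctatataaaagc
HIST1H2AJ and HIST1H2BM, chr6:27814954-27815001, plus strand: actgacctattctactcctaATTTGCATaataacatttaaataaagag
HIST1H2AM and HIST1H2BO, chr6:27893256-27893303, minus strand: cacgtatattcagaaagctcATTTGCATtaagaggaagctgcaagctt
The flanks differed from pair to pair, and only the octamer was common to the 8 stretches by construction. The pair HIST1H2AA and HIST1H2BA encodes testis histones and holds the octamer like the others.

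Other motifs split the classes in another way. CCAAT was in all 6 H1, 14 H2A, 19 H2B and 13 H3 windows but in 3 of 12 H4 windows, against 34.6% of all windows. TATAAA was in 43 of 64 windows, against 11.5% of all windows. Matches to CCAAT or TATAAA in a shared stretch likewise count in both windows of a pair. The STAT-type pattern TTCNNNGAA was in 1 of 64 histone windows, that of HIST1H1D, against 7.66% of all windows. This match lay 36 bases after the start and not before it. No 2 different motifs overlapped in these windows. The windows of 3 genes are shown whole on the strand of the gene, with all matches to the 4 motifs, on either strand, in capitals: the H2A gene HIST1H2AJ, which shares its window with HIST1H2BM and reached the ceiling, the linker histone gene HIST1H1D with the STAT-type match, and HIST1H4E, the H4 gene with the highest difference between the groups, which holds none of the 4.
HIST1H2AJ, chr6:27814728-27815027, minus strand: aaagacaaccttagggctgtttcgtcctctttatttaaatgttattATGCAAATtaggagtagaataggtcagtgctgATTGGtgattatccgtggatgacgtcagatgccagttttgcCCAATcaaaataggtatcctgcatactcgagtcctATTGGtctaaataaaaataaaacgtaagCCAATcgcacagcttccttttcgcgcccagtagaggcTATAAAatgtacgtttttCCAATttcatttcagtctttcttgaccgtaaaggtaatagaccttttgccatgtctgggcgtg
HIST1H1D, chr6:26234938-26235237, minus strand: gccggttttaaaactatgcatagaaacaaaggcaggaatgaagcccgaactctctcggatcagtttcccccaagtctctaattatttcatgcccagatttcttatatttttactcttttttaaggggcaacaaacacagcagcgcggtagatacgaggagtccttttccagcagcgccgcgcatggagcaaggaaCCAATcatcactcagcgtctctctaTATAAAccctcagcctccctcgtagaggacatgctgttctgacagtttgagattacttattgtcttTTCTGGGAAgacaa
HIST1H4E, chr6:26204360-26204659, plus strand: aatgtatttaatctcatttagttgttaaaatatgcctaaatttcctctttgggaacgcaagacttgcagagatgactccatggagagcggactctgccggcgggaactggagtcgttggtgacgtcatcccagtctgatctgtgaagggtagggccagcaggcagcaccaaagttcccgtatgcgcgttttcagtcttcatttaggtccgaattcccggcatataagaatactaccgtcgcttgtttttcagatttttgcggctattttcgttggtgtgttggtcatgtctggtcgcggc
A match is a run of letters and was not tested for binding, and a window without one says only that these letters are not in these 300 bases.

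The most prominent feature of the histone probes was their brightness. Values ended at 16, the log2 of the scanner's highest count of 65535, and a value there is a lower bound on the signal. Of the 87 histone probes, 26 (29.9%) were at this ceiling on all 6 arrays, against 115 of 27129 other probes with a symbol (0.424%). Histones made up 18.4% of all ceiling probes with a symbol. A further 5 were at the ceiling on some arrays, 52 were below it on all arrays and passed the filter on dim spots, and 4 did not pass that filter. The number of histone probes at the ceiling was 29, 27 and 29 on the restimulated arrays and 27, 27 and 30 on the withdrawn arrays, so the groups overlapped. With a limit just below 16, 28 probes were at the ceiling on all arrays.

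Probes at the ceiling on all arrays belonged to H2A, H2B and H3. The ceiling held 10 of 23 H2A probes (43.5%), 11 of 25 H2B probes (44%), 5 of 19 H3 probes (26.3%), and none of 14 H4 or 6 H1 probes. By cluster it held 19 of 68 HIST1, 5 of 13 HIST2 and 2 of 5 HIST3 probes, while the single HIST4H4 probe, an H4 gene on chromosome 12, lay between 7.27 and 7.85 on the restimulated arrays and between 7.54 and 7.76 on the withdrawn arrays. The H2A genes with a probe at the ceiling on all arrays were HIST1H2AD, HIST1H2AG, HIST1H2AH, HIST1H2AJ, HIST1H2AK, HIST1H2AM, HIST2H2AB, HIST2H2AC and HIST3H2A. The H2B genes were HIST1H2BB, HIST1H2BE, HIST1H2BF, HIST1H2BH, HIST1H2BI, HIST1H2BL, HIST1H2BM, HIST1H2BN, HIST1H2BO, HIST2H2BE and HIST3H2BB. The H3 genes were HIST1H3B, HIST1H3D and HIST2H3D. In 6 of the 10 head-to-head pairs both genes had such a probe. For these 26 probes the data give no difference between the groups, in either direction.

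**Figure D1:**
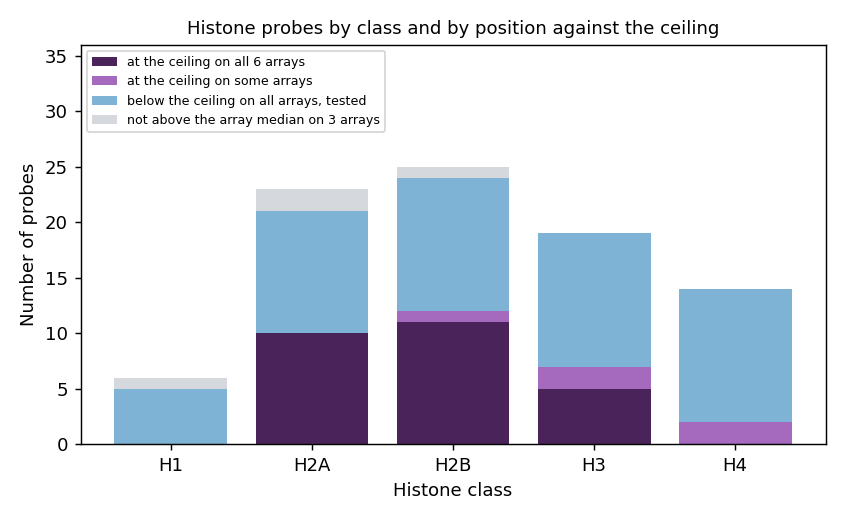
Number of histone probes in each class (stacked bars, y axis from 0), split by position against the ceiling of 16 on the log2 scale; HIST4H4 is in the H4 bar. H2A and H2B hold 10 and 11 probes at the ceiling on all 6 arrays, H3 holds 5, and H1 and H4 hold none.

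A probe at the ceiling was not taken on its own to mark an abundant transcript, and whether it does was not tested. Outside the histones, the ceiling probes included ACTB, ALDOA, RPL10 and RPL38, housekeeping and ribosomal protein genes, and IGK and CD79A of the B cell lineage. They also included HCN2, GRIN2D and DRD4, neuronal channel and receptor genes, LCE1A of the skin barrier, and the T cell gene CD4. Probe sequences were not used here, and histone genes of 1 class have nearly the same coding sequence, so whether a histone probe reads 1 gene only was not tested.

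Probes of 1 gene often differed in whether they were at the ceiling. Levels of different probes are not on 1 scale, so they are given here as what each probe read and not compared as expression. Several probes were found for 19 histone genes, and in 10 of them some but not all were at the ceiling on all arrays, while in HIST1H2AJ, HIST1H3B and HIST2H3D all were. HIST2H2BE, an H2B gene whose transcript also occurs with a poly(A) tail, had 1 probe at the ceiling, 1 at 8.49 and 8.50, and 1 at 7.20 and 7.53 (mean log2 intensity of restimulated and of withdrawn samples). HIST1H2AK and HIST1H2BN each had 1 probe at the ceiling and 1 that did not pass the filter on dim spots, HIST1H2AK at 6.47 in restimulated and 6.55 in withdrawn samples and HIST1H2BN at 6.45 in both. There were 8 genes with 2 or more tested probes, and in 2 of these, HIST1H3F and HIST3H2BB, the probes differed in sign. No gene was called on any of its probes.

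No histone probe was called between the groups. In the limma fit across all 120387 tested spots, 0 of the 57 tested histone probes had an adjusted p below 0.05, against 2.97% of all tested spots (2.76% higher and 0.218% lower in restimulated samples) and 0.742% of tested probes with a symbol. One of the 57 had an unadjusted p below 0.05, against 12.3% of all tested spots, and none was called with limma's intensity trend and robust prior either. Of the 52 probes measured on all arrays, 16 were higher and 36 lower in restimulated samples, with a median difference of -0.06 and a range of -0.33 to 0.28 (log2). Of all tested spots 52.2% were lower, and of tested probes with a symbol 46.2%. With 1 array left out, the number of lower histone probes ranged from 26, without withdrawn replicate 2, to 39. The 95% intervals of all 52 lay within 1 unit of 0, a doubling or a halving, and those of 43 lay within 0.5. The groups did not overlap in 2 of the 52 (3.85%), against 17.6% of all tested spots and 11.8% of tested probes with a symbol. SDs within a group ran from 0.020 to 0.44. The intervals are not adjusted for the number of probes, and they say nothing of the 26 probes at the ceiling. Of the 52, 15 had a mean level of 15 or more, and a rise of 1 unit above that mean would pass 16. For these 15 the ceiling itself bounded the upper side, so their intervals cannot show that a doubling was absent.

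**Figure D2:**
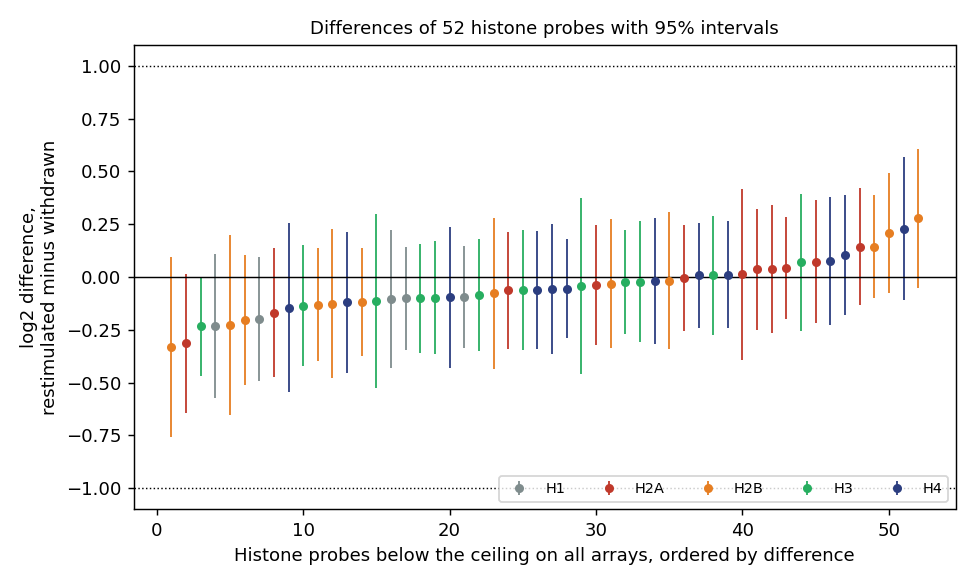
Difference in log2 intensity, restimulated minus withdrawn (y axis), of the 52 histone probes below the ceiling on all arrays, ordered by difference (x axis) and coloured by class; bars are 95% intervals of the limma fit and dotted lines mark a doubling and a halving. All intervals lie between the dotted lines and 51 of them span 0.

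HIST1H3F, an H3 gene, had the smallest p. Its bright probe read 15.49, 15.41 and 15.63 in restimulated samples, against 15.73, 15.78 and 15.72 in withdrawn samples. All 3 restimulated values lay below all 3 withdrawn values. The difference was -0.23 ± 0.10 (SE), a fold of 0.850, with an unadjusted p of 0.0499 and an adjusted p of 0.406 by limma. Its other probes read 6.88 and 8.41 in restimulated and 6.92 and 8.34 in withdrawn samples (means).

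Among H2A genes the smallest p belonged to HIST2H2AA4. One of its probes read 13.52, 13.39 and 13.63 in restimulated samples, against 13.92, 14.05 and 13.51 in withdrawn samples, a difference of -0.31 ± 0.15. Withdrawn replicate 3 lay among the restimulated values. The brighter probe of HIST2H2AA4 averaged 15.10 in restimulated and 15.26 in withdrawn samples, a difference of -0.17 ± 0.14, and its groups overlapped. The brightest H2A probe below the ceiling, of HIST1H2AE, averaged 15.66 ± 0.15 in restimulated and 15.72 ± 0.15 in withdrawn samples (SD, n = 3 each), and the groups overlapped. The median difference over the 11 measured H2A probes was 0.013.

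H2B genes spread to both sides. HIST1H2BK, known to make a polyadenylated transcript besides the stem-loop form, had the highest difference of all 52, 0.28 ± 0.15 (adjusted p = 0.514, limma), and 0.14 without restimulated replicate 3. It read 9.26, 9.41 and 9.75 in restimulated samples, against 9.03, 9.35 and 9.21 in withdrawn samples, and the groups overlapped. At the other end stood a dim probe of HIST2H2BE, with 7.11, 7.34 and 7.15 in restimulated and 7.47, 7.14 and 7.99 in withdrawn samples, a difference of -0.33 ± 0.19 that ranged from -0.53 to -0.10 with 1 array left out. A dim probe of HIST3H2BB differed by 0.21 ± 0.13 and the bright probe of HIST1H2BJ by -0.20 ± 0.14, and in both the groups overlapped. The brightest H2B probe below the ceiling, of HIST1H2BE, read 15.37, 15.49 and 15.52 in restimulated and 15.65, 15.89 and 15.23 in withdrawn samples. HIST1H2BC and HIST1H2BG had the same order as HIST1H2BE in that withdrawn replicate 2 was the highest array and withdrawn replicate 3 the lowest. That order was not particular to H2B: it stood in 11 of the 52 measured histone probes, 3 of them H2B, 4 H3, 2 H4, 1 H2A and 1 H1.

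The 5 measured linker histone genes had lower means in restimulated samples, with a median difference of -0.10, and none was called. HIST1H1A read 7.18, 7.03 and 7.06 in restimulated samples, against 6.98, 7.43 and 7.57 in withdrawn samples, a difference of -0.23 ± 0.15 that ranged from -0.41 to -0.11 with 1 array left out. HIST1H1B read 13.78, 14.07 and 14.15 in restimulated samples, against 14.03, 14.27 and 14.30 in withdrawn samples, a difference of -0.20 ± 0.13. Both overlapped between the groups. HIST1H1E, the brightest of the class, differed by -0.10 ± 0.15, and by 0.058 without withdrawn replicate 2. HIST1H1D, with the STAT-type match in its promoter window, differed by -0.09 ± 0.11.

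H4 genes had a median difference of -0.04 over 12 measured probes. HIST1H4E was the highest, with 13.62, 13.92 and 14.17 in restimulated samples, against 13.54, 13.63 and 13.86 in withdrawn samples, a difference of 0.23 ± 0.15 that ranged from 0.098 to 0.37 with 1 array left out. HIST1H4I, the brightest H4 probe below the ceiling, read 15.50, 15.53 and 15.55 in restimulated and 15.51, 15.82 and 15.32 in withdrawn samples. The restimulated values lay inside the withdrawn range. HIST2H3A, the brightest H3 probe below the ceiling, differed by -0.09 ± 0.12.

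**Figure D3:**
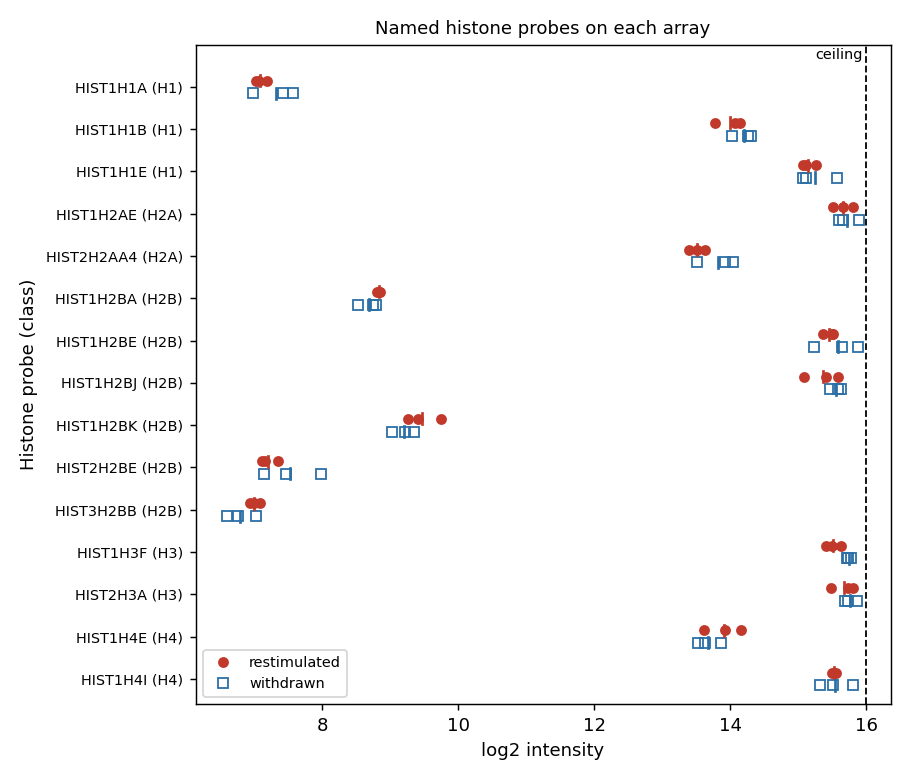
Log2 intensity (x axis) of the 10 histone probes with the smallest p and of the brightest probe of each class below the ceiling, with 3 restimulated samples (filled circles) above 3 withdrawn samples (open squares) in each row and short vertical lines at the group means. The groups lie apart in HIST1H3F and in HIST1H2BA and overlap in the other rows.

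The ceiling was reached on some arrays by 5 probes, and the differences of these are only partly measured. HIST1H4H read 15.63, 15.74 and 15.76 in restimulated samples, against 15.74, 15.89 and the ceiling in withdrawn samples. HIST1H3G read 15.46, 15.72 and the ceiling in restimulated samples, against 15.88, 15.98 and 15.58 in withdrawn samples. One probe of HIST1H2BD was at the ceiling on restimulated replicate 1 and withdrawn replicate 3, and 1 of HIST1H3D on all arrays but restimulated replicate 2 and withdrawn replicate 2. HIST2H4B was at the ceiling on every array but withdrawn replicate 1, where it lay just below, so no fold is given. None of the 5 was called.

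Testis histones and histones with polyadenylated transcripts were read apart from the rest. HIST1H1T, the testis linker histone, did not pass the filter, with 6.45, 6.27 and 6.32 in restimulated and 6.15, 6.39 and 6.22 in withdrawn samples. HIST1H2BA, the testis H2B, read 8.81, 8.84 and 8.85 in restimulated samples, against 8.75, 8.53 and 8.79 in withdrawn samples. The groups did not overlap, and the difference was 0.14 ± 0.11 (adjusted p = 0.687, limma). HIST1H2AA, the testis H2A of the same head-to-head pair, averaged 9.68 ± 0.11 in restimulated and 9.64 ± 0.069 in withdrawn samples (SD, n = 3 each). The probe of HIST3H3, the testis H3, was bright, with means of 14.49 and 14.51. Of 5 genes with known polyadenylated transcripts none was called: beside HIST1H2BK, HIST1H2BD and HIST2H2BE, HIST1H1C differed by -0.10 ± 0.11, and the 2 probes of HIST1H2AC by 0.14 ± 0.12 and 0.04 ± 0.14.

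The bright histone probes leaned to one side, and the count depended most on withdrawn replicate 2 and also on restimulated replicate 1. Among the 20 measured histone probes with a mean level of 14 or more, a limit chosen after the values were seen, 19 were lower in restimulated samples (median -0.09), against 48.1% of 262 other bright probes with a symbol (median 0.0088). Withdrawn replicate 2 was the highest array for 15 of the 20. The median deviation from the mean of the probe was -0.13, -0.0026 and -0.0028 on the restimulated arrays and 0.03, 0.19 and -0.09 on the withdrawn arrays. The 262 other bright probes stood at -0.07, 0.07 and -0.02 on the restimulated arrays and -0.05, 0.15 and -0.05 on the withdrawn arrays, and withdrawn replicate 2 was the highest for 39.3% of them. Without withdrawn replicate 2, 10 of the 20 were lower, against 35.5% of the 262 other bright probes, and the median over all 52 measured histone probes was 0.0044. Without restimulated replicate 1, 13 of the 20 were lower, against 37.4% of the others. Withdrawn replicate 2 also had the fewest spots at the ceiling, 1750, against 1919 and 2174 on the other withdrawn arrays and 1935 to 2192 on the restimulated arrays.

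**Figure D4:**
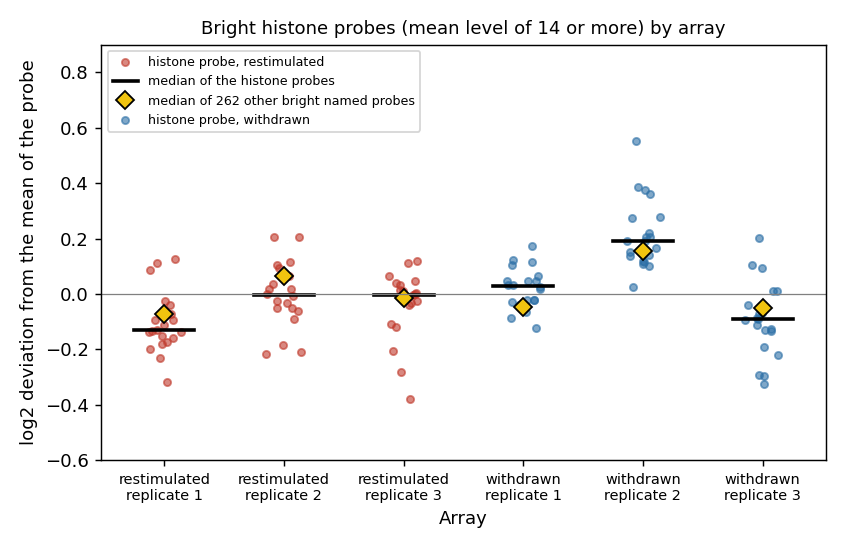
Deviation of the log2 intensity from the mean of the probe over the 6 arrays (y axis) for the 20 bright histone probes (points), with their median (black line) and the median of 262 other bright probes with a symbol (diamond), on restimulated and then withdrawn arrays (x axis). Withdrawn replicate 2 stands highest, with medians of 0.19 for the histones and 0.15 for the other probes.

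Of the genes that make and process histone mRNA, none of 19 tested was called, against 0.76% of the 12625 tested genes with a symbol, and their median difference was 0.04, against 0.0098 over those genes. SLBP, which binds the stem-loop, averaged 11.18 ± 0.078 in restimulated and 11.24 ± 0.30 in withdrawn samples (SD, n = 3 each). NPAT, the coactivator of histone genes in S phase, differed by 0.10 ± 0.10. The smallest p of this list belonged to UPF1, a helicase in histone mRNA decay (-0.19 ± 0.10), HINFP, an H4 gene activator (0.15 ± 0.10), and NPAT.

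Replication-independent histones, whose synthesis is not confined to S phase, had 0 of 9 tested genes called, against 0.76% of all tested genes, and a median of -0.08, against 0.0098. CENPA, the centromeric H3, differed by -0.20 ± 0.11, H3-3B, which encodes H3.3, by 0.21 ± 0.13, and H2AJ by -0.12 ± 0.12 with 1 withdrawn array at the ceiling. The other tested probes of H3-3B differed by 0.25 ± 0.12 and 0.31 ± 0.12, and that of H2AJ by 0.02 ± 0.13, and none was called. Of 10 histone chaperones none was called, against the same 0.76% (median 0.09, against 0.0098), and the smallest p belonged to HIRA, which loads H3.3 (0.26 ± 0.11), SSRP1, a subunit of FACT (0.28 ± 0.13), and NAP1L1 (0.21 ± 0.11).

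Of 23 tested genes of DNA synthesis and S phase entry 1 was called, against 0.76% of all 12625 tested genes. CCNE2, the cyclin E2 that activates CDK2 at the start of S phase, read 9.46, 9.42 and 9.05 in restimulated samples, against 8.50, 8.51 and 8.70 in withdrawn samples. The groups did not overlap, and the difference was 0.74 ± 0.13, a fold of 1.67 (adjusted p = 0.0143, limma). The call was lost when restimulated replicate 1 or 2 or withdrawn replicate 1 or 2 was left out (adjusted p = 0.0805, 0.0813, 0.0716 and 0.0736), with the replicate number as a block (0.0720), and with the spots at the ceiling kept in the fit (0.0679). The difference ranged from 0.67 to 0.87 with 1 array left out. TYMS, thymidylate synthase, differed by 0.22 ± 0.10 and CDK2 by 0.33 ± 0.15 without being called, and the median of the list was 0.05.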

How the data were processed

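Total RNA of INA6 cells was labelled with Cy3 from random primers and hybridised to a custom Agilent array. Per the labels the authors deposited log2 intensity values after quantile normalisation. R 2.9.0 and limma are the tools credited in the submitters' processing notes. How background was corrected: not given in the sources used here. Depth does not apply to arrays, and 3 arrays per group limit the precision.

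Each spot number of the value table was matched to the probe table by the array's grid of 912 by 267 positions. Under this match the mean levels of the 2 probes of a gene correlated with r = 0.403 over 5187 genes outside the histones, against 0.0285 for equal numbers. Symbols were updated through RefSeq. Of the 87 probes, 77 were named by accession and 10 by synonym.

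Differences were fitted with limma 3.58.1 (lmFit, eBayes, two-sided) in R 4.3.3 and adjusted by Benjamini-Hochberg over all 120387 tested spots. A spot was tested if above its array's median on at least 3 of 6 arrays and not at the ceiling (16) on all 6, since spots without variance lower the prior degrees of freedom (1.64 with them, 5.79 without). The authors' filter on negative controls was not used here. The script was tested on simulated data. For a gene list the brightest tested probe of a gene was used, and histones were kept as probes.

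The members and lists were chosen with earlier results of these data known. Named were called probes, the 10 histone probes with the smallest p and no ceiling value, the brightest such probe per class, probes partly at the ceiling, genes whose probes differed in sign, testis and polyadenylated histones, members at the ceiling by name, per list the called genes and the 3 smallest p, and SOCS3. The main fit did not pair samples by replicate number, and the labels do not say whether the numbers mark pairs.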

Additional observations from a re-analysis of the deposited data

How the results depend on the processing

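No histone probe was called under any alternative run, and no histone gene when the probes of a gene were averaged. With an interquartile range above 0.5 required, no histone probe remained to be tested. The number of called spots, 3580, became 2239 with spots at the ceiling on all arrays kept in, 1935 with the 75th percentile as the filter and 91 with only probes with a symbol, where far fewer spots were tested, and 2026 to 3392 with each array left out. The prior degrees of freedom were 1.64 with ceiling spots kept in, against 5.79 in the main fit. With the 75th percentile as the filter 60137 spots were tested, against 120387. Apart from the restriction to probes with a symbol, the cause was not tested. With the replicate number as a block 2359 spots were called. Same-numbered samples did not deviate together (r of -0.01, -0.07 and -0.26). This cannot decide whether the numbers pair the samples, because noise of single arrays can hide a shared culture, and the labels do not say. The 1 called gene of the histone-related lists, CCNE2, became 0 with ceiling spots kept in and with the replicate block, and 0 to 1 with each array left out. The median histone difference, -0.06, ranged from -0.11 to 0.0044, and the number of bright histone probes that were lower, 19, from 10 to 19, an alternative added after seeing the data. With 13 or 15 in place of 14 as the limit for bright probes, also added after seeing the data, 26 of 29 and 14 of 15 were lower.

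Leaving out 1 array turned the sign of 29 of the 52 measured histone probes, none of them called. Among the 27 named histone probes tested it turned 12, 2 of which, HIST1H3D and HIST1H3G, hold values at the ceiling, so that their differences are not fully measured. HIST1H1E ranged from -0.20 to 0.058, HIST1H2AA from -0.018 to 0.090, HIST1H2AC (probe 201726) from -0.058 to 0.14 and HIST1H2AE from -0.14 to 0.023. HIST1H2BD (probe 200015) ranged from -0.11 to 0.10, HIST1H2BE from -0.31 to 0.023 and HIST2H2BE (probe 45124) from -0.085 to 0.11. HIST1H3D ranged from -0.021 to 0.0032, HIST1H3G from -0.22 to 0.047, HIST2H3A from -0.15 to 0.0079, HIST3H3 from -0.12 to 0.069 and HIST1H4I from -0.13 to 0.11. Of the named probes that kept their sign, HIST2H2AA4 ranged from -0.47 to -0.20, HIST1H2BJ from -0.32 to -0.065, HIST3H2BB from 0.11 to 0.32, HIST1H1B from -0.28 to -0.090 and HIST1H2BA from 0.063 to 0.19. Of the 87 probes, 31 hold a value at the ceiling, which limits what they can show. It also limits how large a rise can be recorded for the 15 measured probes with a mean of 15 or more.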

Other observations

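Histone probes were named from a RefSeq accession or from a cDNA or EST accession. None of the 10 with a cDNA or EST accession was at the ceiling on all arrays, against 26 of 77 (33.8%) with a RefSeq accession, and 2 of the 10 did not pass the filter on dim spots. Of the 10, 8 had means below 9 in both groups, as in HIST1H3G, with 7.38 in restimulated and 7.44 in withdrawn samples. The other two were bright, HIST1H2BD with 13.47 in restimulated and 13.50 in withdrawn samples and 1 probe of HIST3H2BB with 14.51 in restimulated and 14.63 in withdrawn samples.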
